A study of Mus musculus with 10 samples.

Results

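The clustered protocadherin genes were the 58 genes of mouse chromosome 18 whose symbols begin with Pcdha, Pcdhb or Pcdhg, out of 49943 genes listed by RefSeq for GRCm38.p6. They fell into an alpha cluster of 14 genes from 36930285 to 37188897, a beta cluster of 22 genes from 37264998 to 37521419, and a gamma cluster of 22 genes from 37661775 to 37841873 (mm10 coordinates). The gamma cluster included the pseudogene Pcdhgb8. The predicted genes Gm38666, Gm38667 and Gm37013, which overlap the clusters, did not match by symbol and were not counted.

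Clustered protocadherins are adhesion proteins of the neuronal surface, and each neuron displays its own combination of them. In the alpha and gamma clusters every variable first exon has its own promoter and is spliced to constant exons at the end of the cluster, while the beta genes each have their own exon and no shared constant exons. Most of these promoters are chosen at random and kept silent by DNA methylation when not chosen, whereas the C-type genes (Pcdhac1, Pcdhac2, Pcdhgc3, Pcdhgc4 and Pcdhgc5) are regulated differently. CTCF and cohesin join chosen promoters to distal enhancers. Smchd1 encodes a chromatin protein that silences the inactive X chromosome and is known to act on the protocadherin clusters.

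Open chromatin was mapped by ATAC-seq, an assay that tags accessible DNA with the Tn5 transposase, in 10 libraries of C57BL/6 neural stem cell lines. Deleted cells (Smchd1 del/del) gave 3 female and 2 male libraries, and control cells (Smchd1 fl/fl) gave 3 female and 2 male libraries. All lines were established from embryos at E14.5 with floxed Smchd1 alleles. Per the labels' protocols, cells received the MSCV-Cre-puro retrovirus, were put under puromycin after 24 h and were harvested 7 days after transduction. The same protocol text stands with every sample, and the sources used here give neither a vector for control cells nor the deleted stretch of Smchd1.

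The libraries of a group were pooled by the authors into 1 peak list, which leaves the values below without a replicate error and the genotypes without a test. The lists rested on 139318421 tags in deleted females, 144613215 in control females, 74674218 in deleted males and 91734730 in control males. The lists were compared at the length of the shortest, the 88159 peaks with the highest −log10 q, and a rank is a peak's place in that order (1 is the strongest, equal values share a rank). The 44079 best ranks of a list are called strong here. The weakest peak kept had a −log10 q of 4.27 in deleted females and 6.59 in control females, and of 1.39 in deleted males and 4.52 in control males, so the deleted lists kept weaker peaks. Fold enrichment over the local background and −log10 q are the authors' own values for each peak. Below, −log10 q is also set between lists, as a limit or as the value of a weak peak. Depth differed between the lists, and these comparisons were not corrected for it. All 10 neural stem cell markers, among them Nes, Sox2 and Pax6, had a peak in all 4 lists. So did all 6 neuronal, 4 astrocyte, 3 endothelial and 4 fibroblast markers, 4 of 5 oligodendrocyte markers (Mog had none in any list) and 3 of 4 microglia and blood markers, so that peak presence does not set the label apart from other cell types. A peak at the upper end of Smchd1 ranked 754 in deleted females and 597 in control females, and 271 in deleted males and 1226 in control males, which does not check the deletion. In the labels, male samples are male by title and sex field but female by description. Equal-length lists held 68 Y peaks in deleted females and 54 in control females, and 104 in deleted males and 82 in control males, so the female lists were not free of Y peaks.

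In equal-length lists the protocadherin genes with 5 kb on each side held 48 peaks in deleted females and 44 in control females, and 47 in deleted males and 32 in control males. The alpha cluster had 15 peaks in deleted females against 10 in control females, a log2 ratio of 0.58 (−0.67 to 1.90, 95% exact binomial interval, counting error only). In males it had 14 peaks in deleted cells against 8 in control cells, a log2 ratio of 0.81 (−0.55 to 2.27). Both alpha intervals include 0.

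The beta cluster had 14 peaks in deleted females and 14 in control females, a log2 ratio of 0 (−1.18 to 1.18). In males it had 16 in deleted cells against 7 in control cells, with a log2 ratio of 1.19 (−0.17 to 2.72). With the flank left out, so that only summits inside beta genes counted, the male numbers were 14 and 3. The interval was 0.38 to 4.66. Under 7 ways of choosing and counting peaks, this was the sole cluster interval that excluded 0. It carries counting error only, from 1 pooled list per genotype. Beta peaks kept in deleted males reached down to a −log10 q of 2.28, below the 4.52 of the weakest peak kept in control males. With the 5 kb flank and −log10 q limited to 10 or more, the male numbers were 4 and 3 (−2.15 to 3.19).

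The gamma cluster had near equal numbers in equal-length lists, with 19 peaks in deleted females against 20 in control females and 17 in each male list. Its log2 ratios were −0.07 (−1.06 to 0.91) in females and 0 (−1.06 to 1.06) in males. Over all genes the same ratio was −0.01 in females and 0.02 in males, and over chromosome 18 it was −0.04 in both sexes. In the lists as deposited, without equal length, alpha held 19 peaks in deleted females against 22 in control females, and beta 18 against 28. In males deleted cells had more, with 14 alpha peaks against 10 in control males and 16 beta peaks against 12. These lists differ in length. Over all genes they held 77546 peaks in deleted females against 95530 in control females, and 67042 in deleted males against 75061 in control males. With −log10 q limited to 5 or more, each male list had 8 alpha peaks, and beta had 8 in deleted males against 6 in control males. At that limit deleted females held 11 alpha peaks against 14 in control females, and 10 beta peaks against 20. Peaks over all genes were not counted at that limit.

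**Figure D1:**
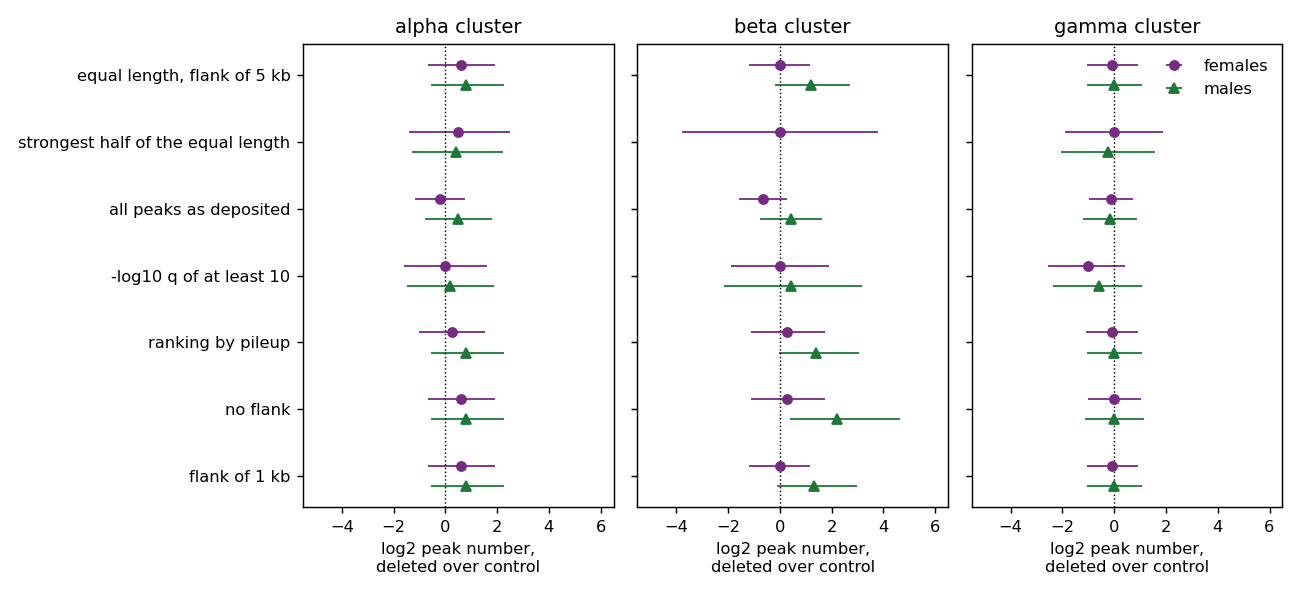
log2 ratio of the number of peaks (deleted over control) in each cluster under 7 ways of choosing and counting peaks, for females (circles) and males (triangles), with 95% exact binomial intervals. Of all points, the beta ratio in males with no flank has the only interval that lies wholly above 0; a missing point means that a list held no peak.

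Overlapping peaks of the 4 lists joined into 69 sites, 18 in alpha, 26 in beta and 25 in gamma. Of these, 21 were present in all 4 lists (7 in alpha, 3 in beta, 11 in gamma) and 27 in a lone list. In females 30 sites were in both lists, 15 in the deleted list alone and 14 in the control list alone. In males 24 were in both, 20 in the deleted list alone and 5 in the control list alone. Across the sexes, 24 sites were seen in deleted lists alone and 9 in control lists alone. Of those 24, 13 overlapped a weaker peak of a control list as deposited, below the equal-length limit. Of the 9, 1 overlapped a weaker peak of a deleted list, which left 11 and 8 sites with no counterpart. Such sites were not counted over the whole genome, and shares of all peaks without a partner are given by sex further below.

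**Figure D2:**
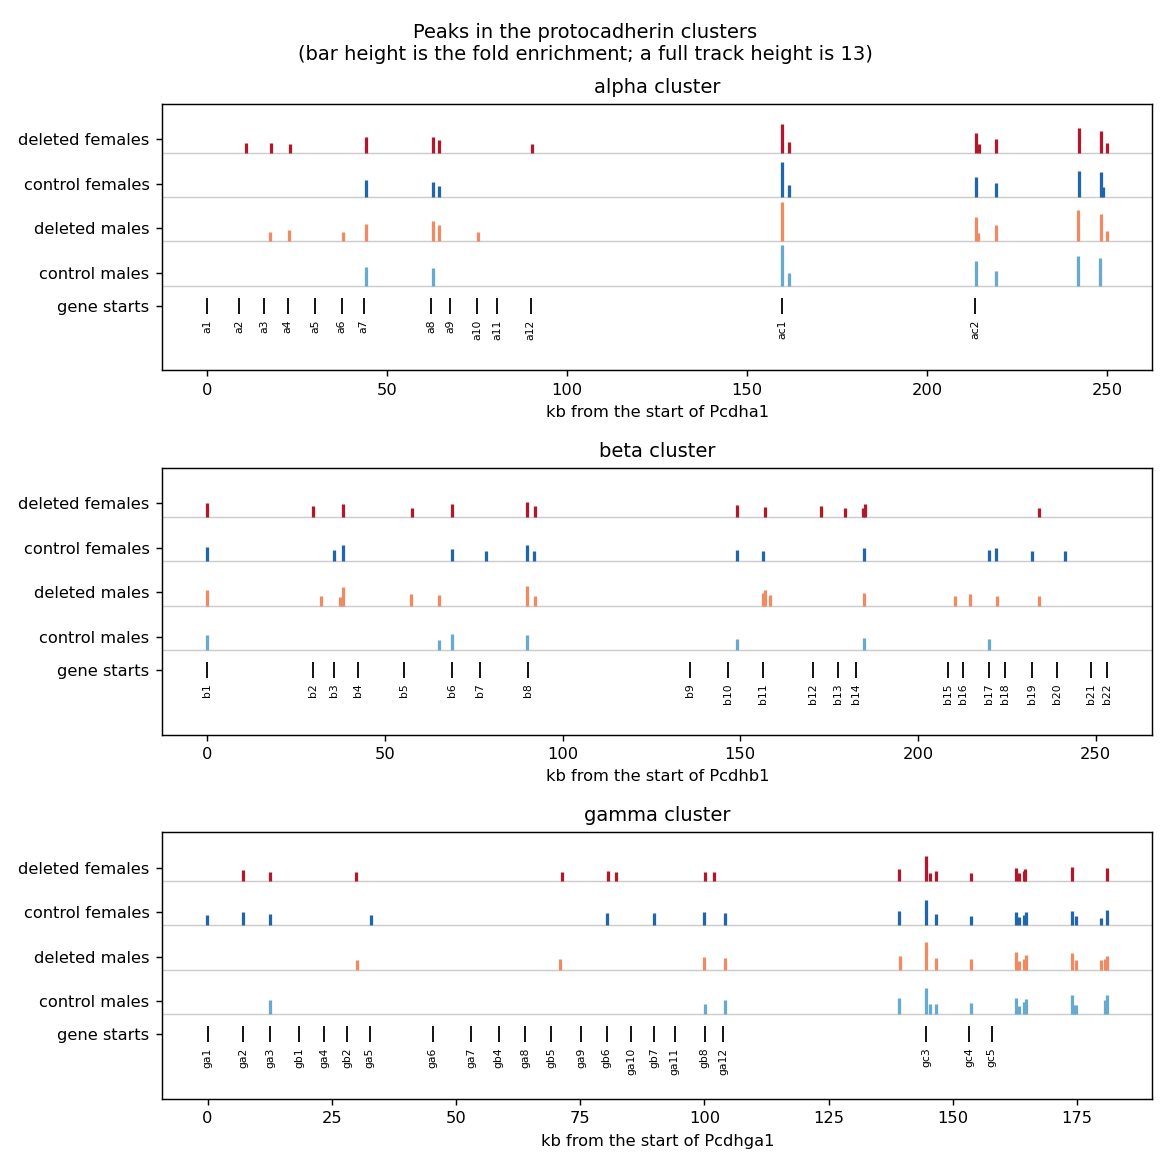
Peaks along each cluster in the equal-length lists, with kb from the start of the first gene on the x axis, the 4 lists as tracks and bars as tall as the fold enrichment. The tallest bars stand at the C-type genes and at the ends of the clusters, and the variable genes have low bars in some lists and none in others.

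The strongest start peaks stood at C-type genes. Pcdhac1, a C-type gene of the alpha cluster, had a peak 169 bp before its start (37089617 to 37090805) with ranks of 6064 in deleted females, 3319 in control females, 5678 in deleted males and 4383 in control males. Its fold enrichment was 8.46 in deleted females and 10.2 in control females, and 11.6 in deleted males and 11.8 in control males. The peak ranked worse in deleted cells of both sexes, with a log2 of control rank over deleted rank of −0.87 in females and −0.37 in males. The female value was the lowest of the 30 sites in both female lists.

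Pcdhac2, the other C-type alpha gene, had a start peak (37143409 to 37144870) that ranked 14954 in deleted females and 15932 in control females, and 13636 in deleted males and 12829 in control males. The 4 ranks lie close together. Pcdhgc3, a C-type gene of the gamma cluster, had a start peak (37806075 to 37807383) that ranked 5368 in deleted females and 5520 in control females, and 7531 in deleted males and 10421 in control males. It was stronger by rank in deleted males, with a log2 rank ratio of 0.47, and nearly equal in females, with a ratio of 0.04. Pcdhgc4 had a weak start peak with ranks of 87753 in deleted females and 75649 in control females, and 68441 in deleted males and 71051 in control males. Pcdhgc5 had no peak within 1 kb of its start in any list, equal-length or as deposited.

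So 4 of the 5 C-type genes had a start peak in all 4 lists, against 5 of the other 53 members (Pcdha7, Pcdha8, Pcdhb1, Pcdhb8 and Pcdhgb8). Here the start is the gene's lower coordinate, the end that alpha and gamma genes do not share, and a start peak has its summit within 1 kb of it. In each list, 17 of the 58 members had a start peak in deleted females and 21 in control females, and 14 in deleted males and 13 in control males. Over the 27025 genes of a RefSeq promoter table, which holds none of chromosome 18, 53.3% had a start peak in deleted females, 52.8% in control females, 53.1% in deleted males and 52.6% in control males.

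Of the variable alpha genes, Pcdha7 and Pcdha8 had start peaks in every list. Pcdha7 ranked 33205 in deleted females and 37092 in control females, and 37411 in deleted males and 37377 in control males. Pcdha8 ranked 31045 in deleted females and 44418 in control females, and 29164 in deleted males and 40164 in control males. Pcdha8 thus stood higher in deleted cells of both sexes, with a log2 rank ratio of 0.52 in females, and no site of the 3 clusters differed in rank by as much as 2-fold in either sex.

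Start peaks at 4 further variable alpha genes were seen in deleted lists alone. Pcdha4 ranked 85059 in the female list and 72391 in the male list, Pcdha6 and Pcdha10 each ranked 85383 in deleted males, and Pcdha12 ranked 85059 in deleted females. All ranked 72391 or weaker. In the lists as deposited, 7 alpha genes had a start peak in deleted females and 7 in control females, against 7 in deleted males and 5 in control males. Pcdha1, Pcdha5, Pcdha9 and Pcdha11 had no peak at the start or up to 3 kb past it in any equal-length list, though each had one in at least 1 list as deposited.

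Beyond the promoters the alpha cluster held strong sites near its constant exons. The site 28.8 kb past the start of Pcdhac2 ranked 11741 in deleted females and 13643 in control females, and 12169 in deleted males and 14357 in control males. The site at 34.9 kb ranked 12369 in deleted females and 10280 in control females, and 12310 in deleted males and 11781 in control males. A weaker site 5.79 kb past that start ranked 41227 in deleted females and 51980 in control females, and 42794 in deleted males and 52462 in control males. These sites were in all 4 lists, and the ranks at 5.79 kb and 28.8 kb were better in deleted cells of both sexes.

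Between the alpha and beta clusters, outside the counted windows, a site 29.4 kb past the alpha cluster (37217696 to 37218532) ranked 12640 in deleted females and 9666 in control females, and 7644 in deleted males and 7627 in control males. Known distal enhancers of the alpha genes lie past the cluster; whether this site is one was not tested.

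Beta peaks were weak. The best beta rank was 38308 in deleted females and 39347 in control females, and 31587 in deleted males and 46656 in control males, and the highest fold enrichment was 4.19 in deleted females and 4.76 in control females, and 5.72 in deleted males and 4.67 in control males. Of the beta peaks, 14.3% were strong in deleted females and 14.3% in control females, against 18.8% in deleted males and 0% in control males. Of the alpha peaks, 46.7% were strong in deleted females and 50% in control females, against 57.1% in deleted males and 75% in control males.

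Start peaks of Pcdhb1 and Pcdhb8 were in all 4 lists. Pcdhb8 ranked 38308 in deleted females and 41774 in control females, and 31587 in deleted males and 48509 in control males. Its log2 rank ratio of 0.62 in males was the highest of the 24 sites in both male lists. Pcdhb1 ranked 39746 in deleted females and 48717 in control females, and 42794 in deleted males and 50443 in control males. Both beta starts were better by rank in deleted cells of both sexes.

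Other beta starts came and went between lists. Pcdhb6 ranked 49828 in deleted females and 61360 in control females, had no peak in deleted males and ranked 46656 in control males. At Pcdhb17 no deleted list held a start peak, while control females had one at rank 68380 and control males one at rank 75164. Of the 69 sites this was the sole one that was in the control list and absent from the deleted list in both sexes. The opposite held in both sexes at 5 sites. Neither number was counted over the whole genome. Pcdhb11 had a peak 434 bp past its start that ranked 73956 in deleted females, 44858 in deleted males and was in no control list, and a separate one 4 bp from the start in control females (80024) and deleted males (61402). Pcdhb2 had a start peak in deleted females alone (61521), and Pcdhb3 (73809) and Pcdhb19 (83405) in control females alone. Pcdhb4, Pcdhb9, Pcdhb18, Pcdhb21 and Pcdhb22 had none at the start or up to 3 kb past it in equal-length lists; as deposited, Pcdhb18 and Pcdhb22 had one past the start in at least 1 list.

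More beta sites lay past the start than at it. The beta genes are 2340 to 5271 bp long, and 16 of the 26 beta sites had summits 1.82 to 2.41 kb past a start, against 9 sites at starts. Of those 16, 9 were in deleted lists alone, 2 (Pcdhb7 and Pcdhb20) in control females alone and 1 in all 4 lists. Pcdhb14 had that site, 2386 bp past its start, with ranks of 49828 in deleted females and 59347 in control females, and 61402 in deleted males and 68269 in control males. Its order was the same in both sexes, with the better rank in deleted cells.

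The strongest of them was at Pcdhb3, 2414 bp past the start (37303083 to 37303306 in deleted males). It ranked 47881 in deleted females and 39347 in control females, and 32926 in deleted males, with no peak in control males. The direction therefore differed between the sexes. Pcdhb10 had a site 2409 bp past its start that ranked 51866 in deleted females and 73809 in control females, was absent in deleted males and ranked 78851 in control males. The site 1927 bp past the start of Pcdhb8 ranked 67341 in deleted females and 83405 in control females, and 82798 in deleted males, with none in control males. In equal-length lists, deleted lists alone held such a site at Pcdhb2, Pcdhb5, Pcdhb11, Pcdhb12, Pcdhb13, Pcdhb15, Pcdhb16 and Pcdhb19. All these sites ranked 67341 or weaker. As deposited, control females also had a peak 1 to 3 kb past the start at each of these genes but Pcdhb2.

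The same spacing was found in the other clusters. Over all 3 clusters, 27 sites had summits at starts, from −0.191 to 0.559 kb, and 27 had summits 1.66 to 2.41 kb past a start with a median of 2.01 kb. Of the sites at starts, 6 were in deleted lists alone, 6 in control lists alone and 9 in all 4 lists. Of the sites past starts, 17 were in deleted lists alone, 2 in control lists alone and 2 in all 4 lists. How often sites past starts were in 1 genotype alone was not counted over all genes. In equal-length lists 18 of the 58 members had a peak 1 to 3 kb past the start in deleted females and 10 in control females, against 15 in deleted males and 4 in control males. In the promoter table that share was 10.8% of genes in deleted females and 11.1% in control females, and 11.0% in each male list.

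The excess past the start rested on how the lists were limited. As deposited, 24 members had such a peak in deleted females and 25 in control females, against 15 in deleted males and 10 in control males. With −log10 q limited to 5 or more, the numbers were 9 in deleted females and 16 in control females, and 6 in deleted males and 4 in control males. In females the order therefore turned round, and in males it held at both settings with a smaller gap. Shares over all genes were not counted at these settings. With −log10 q limited to 10 or more, the promoter table gave 6.78% in deleted females and 8.68% in control females. In males it gave 6.26% in deleted cells and 7.44% in control cells, so that such a limit lowered the deleted shares over all genes too. Of the 17 sites in deleted lists alone, 9 overlapped a weaker control peak as deposited. Members are similar in sequence, and how reads that match several members were assigned was not measured.

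**Figure D3:**
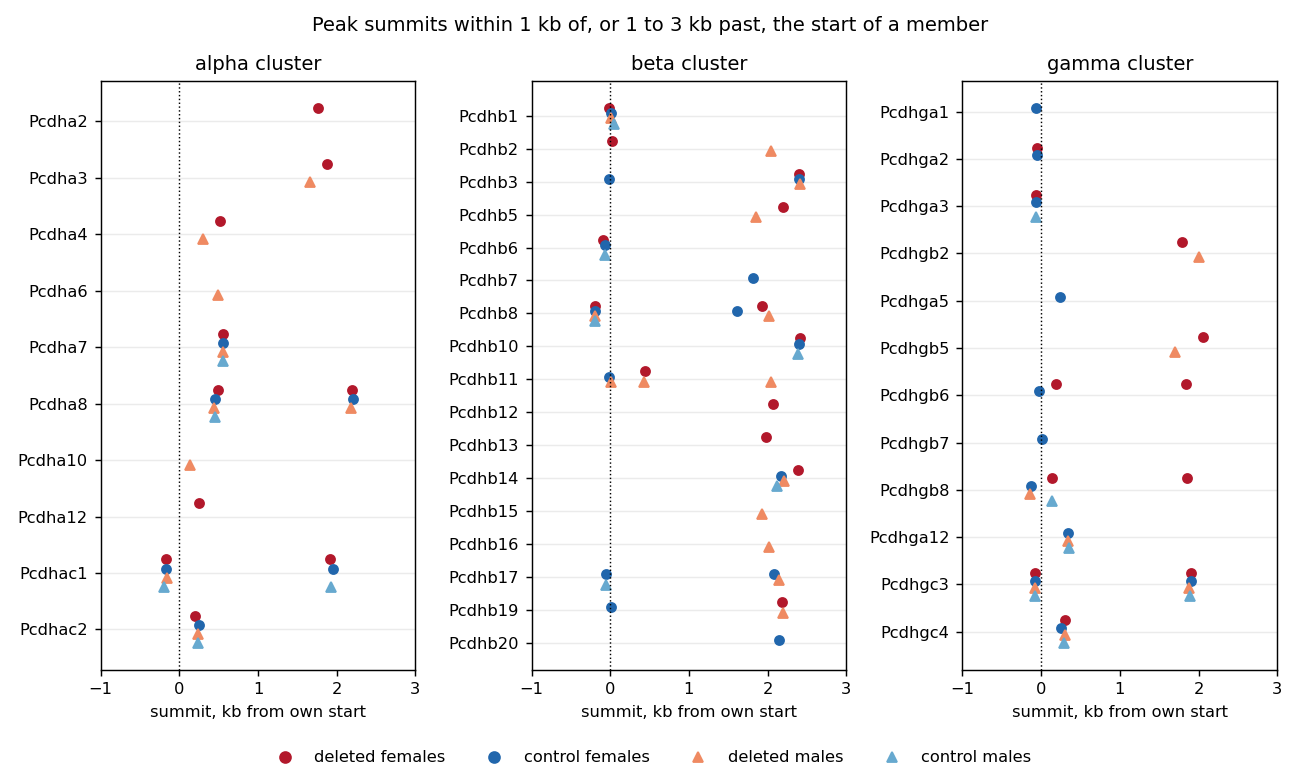
Summit positions of peaks in kb from the member's own start (dotted line), for every member with a peak within 1 kb of the start or 1 to 3 kb past it, with females as circles and males as triangles in the equal-length lists. Summits gather at the start and near 2.01 kb, and most of those past the start in variable genes belong to deleted lists.

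**Figure D4:**
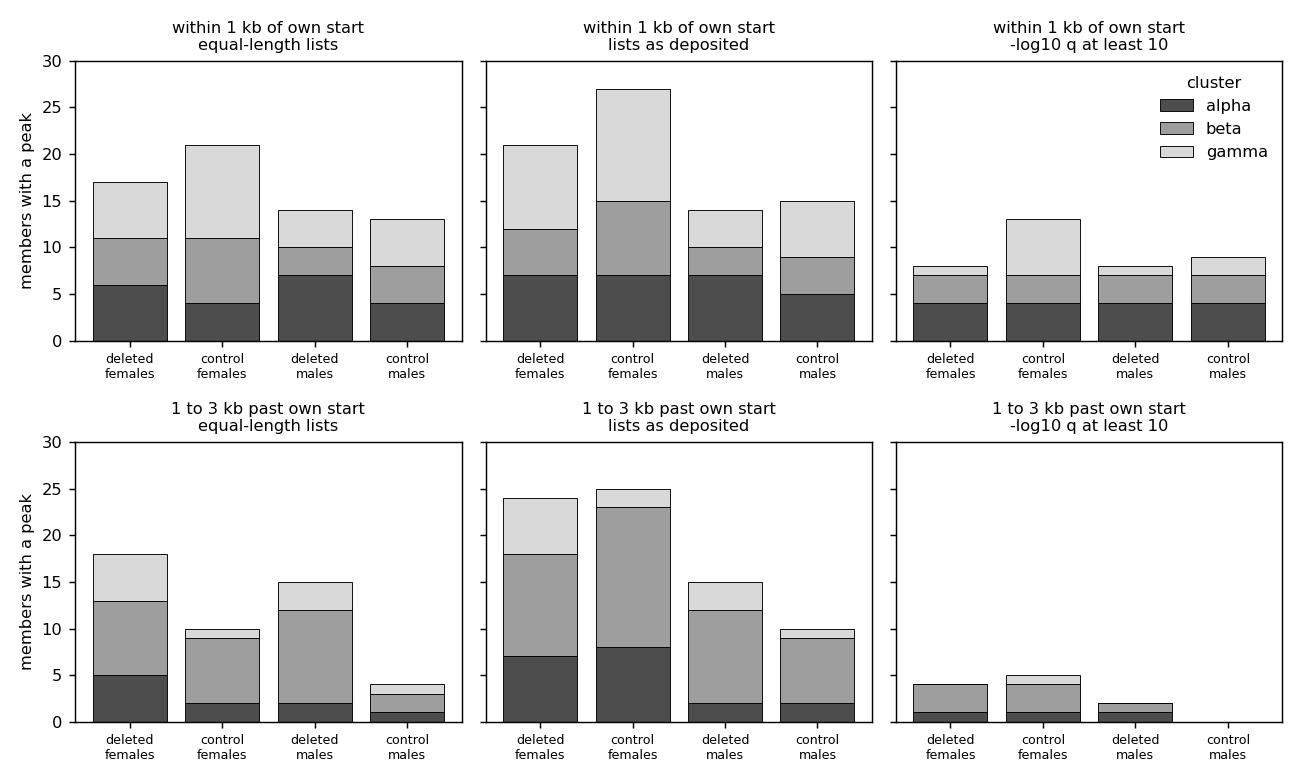
Number of members with a peak within 1 kb of the own start (upper panels) and 1 to 3 kb past it (lower panels) in each list, stacked by cluster, for 3 ways of limiting the lists. Past the start, equal-length lists give 18 members in deleted females against 10 in control females, and lists as deposited give 24 against 25.

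At the gamma starts control females had more peaks at most settings. Start peaks were found at 6 gamma members in deleted females and 10 in control females, and at 4 in deleted males and 5 in control males. As deposited the numbers were 9 in deleted females and 12 in control females, and 4 in deleted males and 6 in control males. With −log10 q limited to 5 or more, they were 5 in deleted females and 11 in control females, and 4 in each male list. With −log10 q limited to 10 or more, they were 1 in deleted females and 6 in control females, and 1 in deleted males and 2 in control males. At that last limit, the share of genes in the promoter table with a start peak was 47.5% in deleted females and 50.1% in control females, and 46.4% in deleted males and 48.0% in control males. Among strong peaks every list had 1, that of Pcdhgc3. Of all peaks in the gamma cluster at that −log10 q, deleted females held 7 and control females 14, a log2 ratio of −1 (−2.55 to 0.40), beside −0.35 over all genes. The interval includes both 0 and the value over all genes.

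The gamma A and B genes make up the variable part of the cluster. Pcdhga2 had a start peak at rank 61521 in deleted females and 51980 in control females, and none in males. Pcdhgb6 ranked 73956 in deleted females and 59347 in control females, and had none in males. Pcdhga3 ranked 77462 in deleted females and 73809 in control females, had none in deleted males and ranked 52462 in control males. In these 3 genes each rank was worse in deleted females.

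Pcdhgb8, the pseudogene, ranked 77462 in deleted females and 51980 in control females, and 58090 in deleted males and 86300 in control males, so its order differed between the sexes. The male peaks of that site did not overlap each other. Pcdhga12 had no start peak in deleted females but one at rank 61360 in control females, and ranked 64835 in deleted males and 57033 in control males. Control females alone had start peaks at Pcdhgb7 (63516), Pcdhga1 (83405) and Pcdhga5 (83405). No gamma start site was in deleted lists alone, and 3 of 10 were in control lists alone. These shares were not counted over all genes.

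Past the gamma starts, 5 of 6 sites in equal-length lists were in deleted lists alone, a share that was not counted over all genes. These lay at Pcdhgb2 (85059 in deleted females, 82798 in deleted males), Pcdhgb5 (2 sites, ranked 85059 in deleted females and 76063 in deleted males), Pcdhgb6 (85059 in deleted females) and Pcdhgb8 (81199 in deleted females). All were weak, and none overlapped a control peak of the lists as deposited. Of all peaks that were not strong, 29.4% in deleted females and 32.9% in deleted males overlapped no control peak of equal-length lists. The sixth, 1883 bp past the start of Pcdhgc3, ranked 61039 in deleted females and 57066 in control females, and 51615 in deleted males and 71261 in control males. As deposited, 6 gamma members had a peak past the start in deleted females and 2 in control females, against 3 in deleted males and 1 in control males. With −log10 q limited to 5 or more, the numbers were 1 in deleted females and 2 in control females, and 1 in each male list. The higher numbers in deleted lists were thus absent at that limit. In equal-length lists, the 10 gamma members with no peak in either position were Pcdhgb1, Pcdhga4, Pcdhga6, Pcdhga7, Pcdhgb4, Pcdhga8, Pcdhga9, Pcdhga10, Pcdhga11 and Pcdhgc5. As deposited, Pcdhgb1, Pcdhga4, Pcdhga6, Pcdhga7 and Pcdhgb4 had one in at least 1 list.

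The region of the shared gamma exons held a group of sites in every list. The site 4.83 kb past the start of Pcdhgc5 ranked 21158 in deleted females and 23346 in control females, and 12317 in deleted males and 17541 in control males. Sites at 6.83 kb ranked 24544 in deleted females and 20301 in control females, and 20229 in deleted males and 19406 in control males. At 16.1 kb the ranks were 27626 in deleted females and 33499 in control females, and 28423 in deleted males and 23921 in control males. At 6.48 kb they were 34074 in deleted females and 36700 in control females, and 39979 in deleted males and 35636 in control males. The first was stronger by rank in deleted cells of both sexes, the second weaker, and the others differed in order between the sexes.

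Just past the gamma cluster, 23.3 kb from the start of Pcdhgc5 (37842036 to 37843208), a site ranked 28653 in deleted females and 20877 in control females, and 33647 in deleted males and 18171 in control males. Its fold enrichment was 3.71 in deleted females and 4.54 in control females, and 4.18 in deleted males and 5.69 in control males. The log2 rank ratio of −0.46 in females and −0.89 in males made it weaker in deleted cells of both sexes, and in males it was the lowest of all 24 sites. Before the gamma cluster, a site at the upper boundary of Taf7 (37643918 to 37644583) was stronger than any member's, with ranks of 2158 in deleted females and 1727 in control females, and 3655 in deleted males and 2220 in control males.

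Of the 21 sites in all 4 lists, 8 ranked better in deleted cells of both sexes, 5 worse in both, and 8 differed in order between the sexes. The median log2 of control rank over deleted rank over shared peaks was 0.13 in alpha, 0.27 in beta and −0.10 in gamma for females, beside −0.03 over all shared peaks. For males it was −0.03 in alpha, 0.21 in beta and −0.06 in gamma, beside −0.01 over all. The beta values rest on 8 peaks in females and 4 in males.

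**Figure D5:**
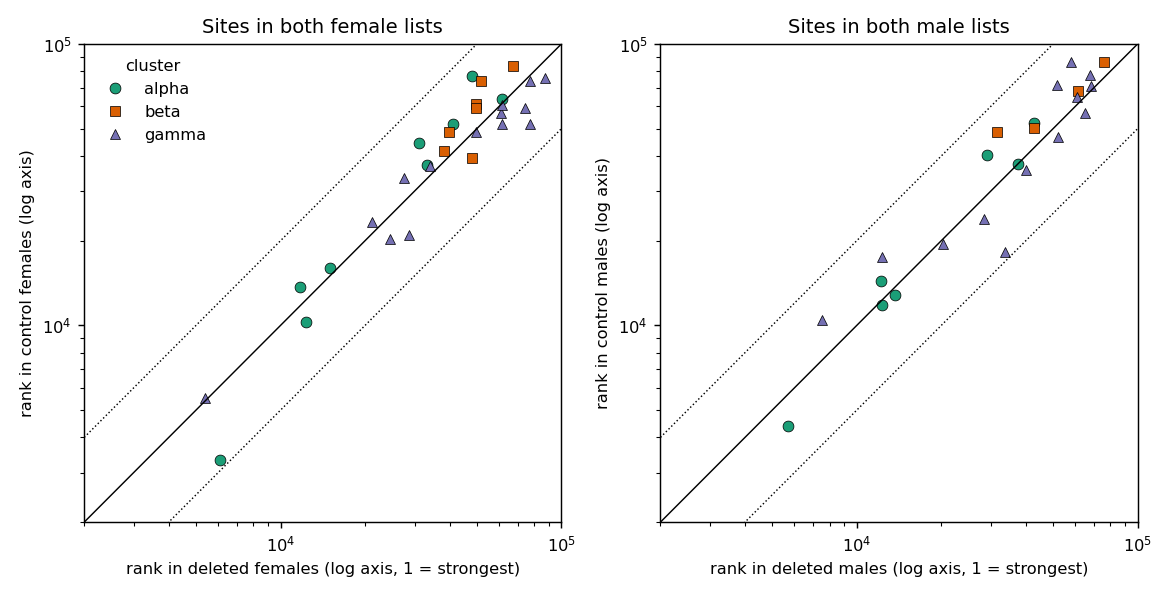
Ranks of sites found in both lists of a sex, deleted on the x axis and control on the y axis (log axes, 1 is the strongest), coloured by cluster, with the line of equal ranks and dotted lines at 2-fold. Points above the solid line rank better in deleted cells; all 30 female and 24 male sites lie within the dotted lines.

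Peaks that passed the stricter rule for a gain or a loss were few. A gained peak was strong in the deleted list and overlapped nothing in the control list, and a lost peak was the reverse. In females 0 of 15 strong peaks were gained, beside 1.13% of all strong peaks, and 0 of 13 were lost, beside 0.44%. In males 2 of 17 were gained, beside 0.837%, and 0 of 13 were lost, beside 1.09%. The male gains were the site at Pcdhb3 described above and a site 2180 bp past the start of Pcdha8 (36994573 to 36994761 in deleted males). The Pcdha8 site ranked 47881 in deleted females and 76811 in control females, and 42794 in deleted males, with none in control males. Its log2 rank ratio of 0.68 in females was the highest of the 30 sites there, so both sexes had it stronger in deleted cells.

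Without the limit on strength, 15 of 48 peaks of deleted females (31.3%, 95% interval 18.7 to 46.3) overlapped no control peak, beside 15.3% of all peaks, and 14 of 44 of control females (31.8%) overlapped no deleted peak, beside 16.9%. In males it was 22 of 47 in deleted cells (46.8%, 32.1 to 61.9), beside 16.9%, and 7 of 32 in control cells (21.9%, 9.28 to 40.0), beside 18.7%. Most protocadherin peaks were not strong, and peaks that were not strong lacked a partner more often over the whole genome too. Among peaks that were not strong, the share was 45.5% (28.1 to 63.6) in deleted females, beside 29.4% of all such peaks, and 45.2% in control females, beside 33.5%. It was 66.7% (47.2 to 82.7) in deleted males, beside 32.9%, and 36.8% in control males, beside 36.3%. Ranks were not matched within the peaks that were not strong. Those of deleted males with no partner ranked 44858 to 87148, most of them at 76063 or weaker. These shares therefore do not show an excess over equally weak peaks. The intervals also treat the peaks of a pooled list as independent, although members are similar in sequence. The beta cluster gave 12 of the 22 male peaks, 75% (47.6 to 92.7) of its 16.

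Among peaks shared by both lists of a sex, 0 of 33 in females and 0 of 25 in males ranked at least 2-fold better in deleted cells, beside 2.35% and 2.18% of all shared peaks. Those at least 2-fold worse were 2 in females, beside 3.09%, and 1 in males, beside 3.96%. All 3 were separate flanking peaks of a broad start peak, at Pcdhac2 in both sexes and at Pcdhgc3 in females, where the other list had a continuous peak.

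The other protocadherins and the neighbouring genes had like numbers of peaks in both genotypes. The 12 non-clustered protocadherins had 101 peaks in deleted females and 112 in control females, and 101 in deleted males and 121 in control males, with 26 and 32 at Pcdh15 in deleted and control females. The 16 neighbouring genes on chromosome 18 had 20 peaks in deleted females and 24 in control females, and 25 in deleted males and 24 in control males. The 10 genes of CTCF and cohesin had 28 in deleted females and 34 in control females, and 33 in deleted males and 35 in control males, and 11 genes of DNA methylation and SMCHD1 partners had 50 and 46 in deleted and control females, and 51 and 50 in deleted and control males. The intervals of all these ratios include 0. Markers of neurons, the cells in which clustered protocadherins are known to act, had 66 peaks in deleted females and 79 in control females, and 67 in deleted males and 83 in control males, and their part in the protocadherin values was not tested. In bulk libraries, fewer cells with a site open and a less open site per cell cannot be told apart.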

How the data were processed

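ATAC-seq peaks were analysed from 10 libraries in 4 groups, 1 list per group. Per the submitters' processing notes, the build was mm10 and the tools were Bowtie2 2.2.5, Trim Galore 0.4.0, bcl2fastq, Picard, SAMtools, edgeR and MACS2. Per the file headers, peaks came from MACS 2.1.0.20140616, run at a q-value of 0.05 on 1 alignment per group without a control sample; tags were moved 75 bp upstream and extended to 150 bp. That the libraries of a group were pooled is also taken from the headers. The deposited pileup is a signal height, fold enrichment is the authors' ratio over local background, and −log10 q is deposited as the authors' peak caller gave it. Tag size was 63, 53, 59 and 62 bp in deleted females, control females, deleted males and control males, per the file headers, and depth differed, so weak peaks are less certain in males.

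Those on chromosomes 1 to 19, X and Y numbered 104316 in deleted females, 130103 in control females, 88159 in deleted males and 101322 in control males. Peaks were given to members by the summit, within 5 kb of a gene. Overlap meant at least 1 bp. Ties at the equal-length limit went by fold enrichment, and gains and losses were called as described in the report. The reference table has no strand: the start of alpha and gamma genes is the end they do not share, and that of beta genes is taken from their known direction. The calling was checked on simulated data. Ratios carry 95% exact binomial intervals that treat the lists as independent, although they share most peaks. No p-value was computed. The planned count of promoter motifs was not made, since the promoter table holds no member. Members and gene lists were chosen with earlier results of these data known. Values in each list are given for members with a start peak, gained peaks, the 6 best sites of a cluster and the 5 largest rank ratios in each direction, and the other members are counted. Alternatives changed the list length, threshold, ranking value, overlap, margin, flank, window and fold. The analysis ran in Python 3.11.15 with scipy 1.17.1, numpy 2.4.6 and pandas 2.3.3, and figures used matplotlib 3.10.9.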

Additional observations from a re-analysis of the deposited data

Results flagged for a closer look

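In equal-length lists the sexes went opposite ways at 3 sites, each with a peak in the control list alone in females and in the deleted list alone in males, and this difference was not tested. A site 4 bp from the start of Pcdhb11 ranked 61402 in deleted males and 80024 in control females. A site 2080 bp past the start of Pcdhb17 ranked 85383 in deleted males and 59347 in control females. As deposited, control males also had a peak there, at rank 89924 with a −log10 q of 4.01, beside 2.75 in deleted males. A site 21926 bp past the start of Pcdhgc5, near the end of the gamma cluster, ranked 64180 in deleted males and 85659 in control females. As deposited, deleted females also had a peak there, at rank 95109. The opposite pattern therefore remained as deposited at the Pcdhb11 site and was absent at the others. None was among the 44079 strongest peaks of its list.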

How the results depend on the processing

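No paired analysis was possible because each group has 1 pooled list and no column carries a replicate number, and for the same reason no library could be left out. All 35 alternative ratios of peak number lay within the interval of the value reported, with ranges of −0.21 to 0.58 (alpha females), 0.19 to 0.81 (alpha males), −0.64 to 0.29 (beta females), 0.42 to 2.22 (beta males), −1 to 0 (gamma females) and −0.58 to 0 (gamma males). These intervals were wide and all included 0, so a ratio of either sign could lie within them, and this does not show that the ratios are stable. The beta ratio in males had no value among the 44079 strongest peaks, with 3 peaks in deleted males and 0 in control males. Without the limit on strength, peaks with no partner numbered 15 in deleted and 14 in control females, and 22 in deleted and 7 in control males. In lists as deposited they numbered 16 in deleted and 33 in control females, and 18 in deleted and 12 in control males. Those lists held 104316 and 130103 peaks in deleted and control females, and 88159 and 101322 in deleted and control males. Shares over all peaks were not counted as deposited. Members with a start peak numbered 7, 5, 7 and 5 among the strongest peaks (deleted females, control females, deleted males, control males), and 8, 13 and 8 with −log10 q limited to 10 or more in deleted females, control females and deleted males. Members with a peak 1 to 3 kb past the start, settings chosen after seeing the data, numbered 0, 1, 2 and 0 among the strongest peaks in the same order of lists, and 4, 5, 2 and 0 with −log10 q limited to 10 or more. They numbered 9, 16 and 6 with −log10 q limited to 5 or more in deleted females, control females and deleted males, and 25 in control females and 10 in control males as deposited. At 1.5-fold, 1 shared peak ranked better in deleted cells in each sex, and 3 ranked worse in males. Of 60 alternative counts, 31 moved by more than 1.5 times and 29 did not. Shallow male lists and weak peaks limit what a missing peak shows: it was not detectable at that depth.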
